A study of Mus musculus with 54 samples.

Results

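Transplanted mouse haematopoietic cells collected on day 7 were compared with steady state multipotent progenitors, the populations that the labels group as iMPP. The transplanted members were the cells annotated as transplanted in the 10 day 7 libraries (L47, L49, L55, L58 to L63 and L78), 389 of the 1031 transplanted cells and of the 2301 annotated cells of the series. The steady state members were 508 cells in 17 libraries, sorted as ST_HSC, LMPP, MPP1, MPP2, MPP3, MPP4, Fraction II, HPC2 or HPC3. All libraries came from C57BL/6 mice aged 8 to 10 weeks, with bone marrow and spleen as the labelled tissue of the day 7 libraries except L60 (bone marrow). Of the iMPP libraries, 12 were labelled bone marrow and 5 bone marrow and spleen, and L49 held cells of both groups. Day 7 cells had 1 sort phenotype in the annotation, GFPP, and the conditioning of the hosts and the number of animals are not given in the labels used here. The assay was a modified Smart-seq2 of single cells, which reads 3' ends of mRNA. For every library the counts of its day 7 or iMPP cells were added up, giving 27 sums of at least 5 cells each. The 297 day 7 cells that the authors' annotation predicts as a tMPP type, all 508 iMPP cells being of such a type, were then compared on their own.

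Multipotent progenitors lie below the haematopoietic stem cell and above the committed precursors of the blood lineages. They carry the stem cell factor receptor Kit, and a subset that gains the receptor Flt3 and the polymerase Dntt is primed for lymphoid fates. Transplanted stem and progenitor cells must home, leave quiescence and divide to refill the marrow, and myeloid cells are among the first mature progeny.

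The day 7 sums held 2458972 to 19264079 counts and the iMPP sums 1437165 to 27619476, with medians of 6705.5 and 6470.5 detected genes for the libraries' median cell. L49 and L55 contributed 5 day 7 cells each. In all 10 day 7 libraries the Y-linked genes Ddx3y, Eif2s3y, Uty and Kdm5d together stayed at or below 0.840 CPM (counts scaled to a library total of 1000000), with Xist at 83.3 to 276 CPM. A set of 10 iMPP libraries (L23, L26, L28, L42, L49 to L53, L74) looked alike (Y-linked 6.25 CPM at most, Xist 147 to 402 CPM). The other 7 (L4, L14, L16, L37 to L40) had 58.1 to 215 CPM of Y-linked counts and Xist at or below 8.29 CPM. Values without those 7 libraries, called here the Y-positive libraries, are therefore given for the main lists and for many of the genes. Among them, L37 to L40 held 51, 50, 52 and 55 iMPP cells and were each labelled with a single population. Leaving the 7 out thus also changed the mix of sorts and lowered the number of cells and libraries. These effects cannot be told apart from that of Y-linked status. The mice behind the libraries are not named, so p-values measured the spread between libraries, which may be technical.

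Within the day 7 cells 297 of 389 (76.3%) were predicted as tMPP types, with 45.5 to 100% (median 83.4%) per library. The most frequent were tMPP3 (107 cells, 27.5%) and tMPP2 (93 cells, 23.9%), followed by tMPP5 (58), tMPP4 (23) and tMPP1 (16). Committed classes made up most of the rest, with 56 tGM cells (50 tGM1 and 6 tGM3) in 6 libraries and 27 tME cells (26 tME1 and 1 tME3) in 5. The tGM share ranged from 0 to 43.6% per library and was highest in L59. The 4 tHSC2 cells all came from 1 library, and 4 tCP1 cells and 1 tLym1 cell completed the set. In iMPP the 5 tMPP types ranged from 75 cells of tMPP5 to 145 of tMPP2, and followed the sort: 73 of 76 MPP3 cells were tMPP3 and 64 of 72 MPP2 cells were tMPP2.

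**Figure D1:**
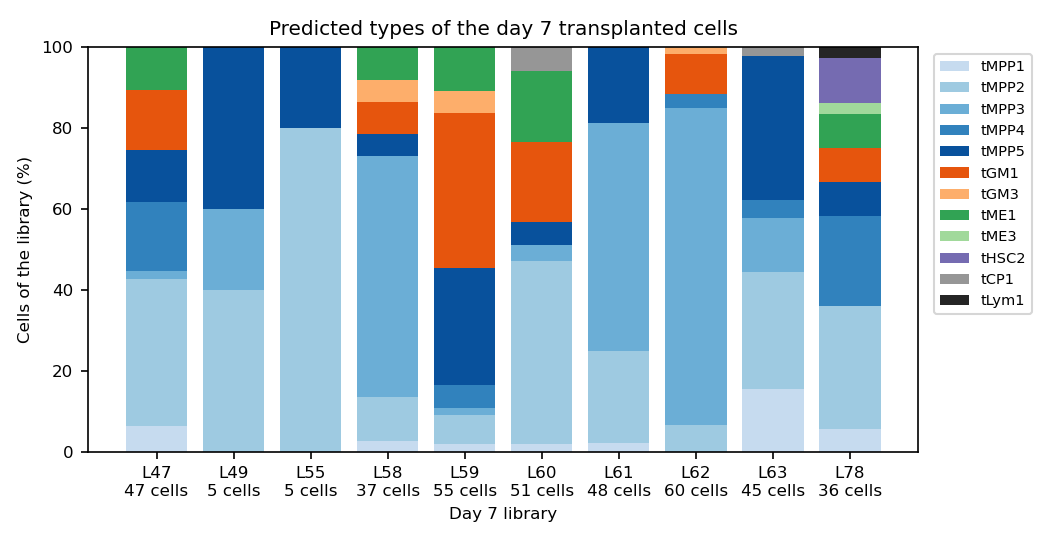
Share of cells (%, y axis) of each predicted type in each of the 10 day 7 libraries (x axis, with the number of cells). tMPP types (blue) make up 45.5 to 100% of a library, and tGM (orange) and tME (green) cells are unevenly spread, with the most tGM cells in L59.

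Over all predicted types, 259 genes were higher and 169 lower in day 7 cells than in iMPP (428 of 11076 genes tested, 3.86%; edgeR quasi-likelihood test, Benjamini-Hochberg adjusted p under 0.05). Higher genes made up 60.5% of these calls, 45.0% of the 804 calls by DESeq2 and 50.3% of the 185 calls without the Y-positive libraries (1.76% of genes). Among genes counted in most day 7 libraries, predicted transcripts left out, the largest increases were genes of maturing neutrophils. Cd177, a neutrophil surface glycoprotein (chr7:24743983-24760311, mm10), lay at 0 to 1418 CPM (median 161) in the 10 day 7 libraries and 0 to 36.1 CPM (median 0) in the 17 iMPP libraries. In 6 day 7 libraries the level exceeded that of every iMPP library, and the others overlapped (log2 change 6.07 ± 1.19 SE, adjusted p = 0.00294). In summed counts, fewer expressing cells and less RNA per cell cannot be told apart.

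A further 7 genes led the increases in the same ranking. Lrg1, a secreted granule glycoprotein, lay at 0 to 2689.6 CPM (median 327) in the 10 day 7 libraries and 0 to 107 CPM (median 0.991) in the 17 iMPP libraries and changed by 5.94 ± 1.19 on the log2 scale (adjusted p = 0.00358). The formyl peptide receptors Fpr2 and Fpr1 changed by 5.85 ± 1.21 and 5.3 ± 1.23. Ceacam10, an adhesion molecule of the CEA family, changed by 5.76 ± 1.28, the integrin subunit gene Itgb2l by 5.58 ± 1.17, Ifitm6 by 5.48 ± 1.2 and the decoy interleukin 1 receptor Il1r2 by 5.1 ± 0.99 (adjusted p 0.00283 to 0.011 for these 6). Each of the 8 had a day 7 library below the highest iMPP library. Without the Y-positive libraries Cd177, Lrg1 and Il1r2 kept adjusted p = 0.0405, 0.0473 and 0.0432, Fpr2, Itgb2l and Ifitm6 had 0.0598, 0.0551 and 0.063, and Ceacam10 and Fpr1 did not pass the filter on low counts.

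The late neutrophil granule list followed the same pattern, with 9 of 19 tested members higher and 0 lower, against 2.34% of all genes higher. Its median log2 change was 3.7, beside -0.02 over all genes. Leaving out the Y-positive libraries, 4 of 18 were higher (0.886% of all genes were; median 3.09), and against the 6 iMPP libraries numbered above 46 alone 16 of 19 were (1.33% of all genes; median 8.18). Anxa1, a phagocyte annexin, lay at 58.1 to 3120.4 CPM (median 747) in the 10 day 7 libraries and 49.9 to 421 CPM (median 142) in the 17 iMPP libraries, with 6 day 7 libraries above every iMPP library (log2 change 2.73 ± 0.45, adjusted p = 0.000526). Lcn2, the iron-chelator carrier of neutrophil granules, lay at 43.2 to 7546 CPM (median 1959.6) in the 10 day 7 libraries and 0 to 839 CPM (median 33.4) in the 17 iMPP libraries (log2 change 3.96 ± 1.11, adjusted p = 0.0351), and its call ended when L47, L58, L59, L60, L62 or the iMPP library L14 was left out (adjusted p up to 0.0717). Of the primary granule list, which marks earlier promyelocytes, 1 of 11 members was higher, the protease activator Ctsc (log2 change 0.97 ± 0.23, adjusted p = 0.0115). Mpo and Elane, its main peroxidase and elastase, were not called (log2 change -0.65 ± 1.05 and -0.87 ± 1.36, adjusted p = 0.804 and 0.797). They spread from 6.58 to 5744 CPM (median 109) and 0.241 to 5408 CPM (median 39.8) over the day 7 libraries, both highest in L62, and their direction changed sign when iMPP was limited to libraries numbered above 46.

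The neutrophil list was highest in the committed classes. Summed over the 19 of its 20 genes in the table, the late neutrophil list took 78517 to 212200 CPM in tGM cells (5 libraries with at least 5 such cells) and 180160 to 229790 CPM in tME cells (3 libraries). Day 7 tMPP cells had 252 to 8870.5 CPM and iMPP cells 109.5 to 21026 CPM. The erythroid regulator Gata1 reached 11.8 CPM at most in tME cells, below the median of 33.4 CPM in day 7 tMPP cells. The annotation does not spell out its type names, and what tME stands for was not assumed. Kit lay at 0.831 to 10.8 CPM in tGM and 4.23 to 8.27 CPM in tME cells, against 24 to 81.5 CPM in tMPP cells of the same day.

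**Figure D2:**
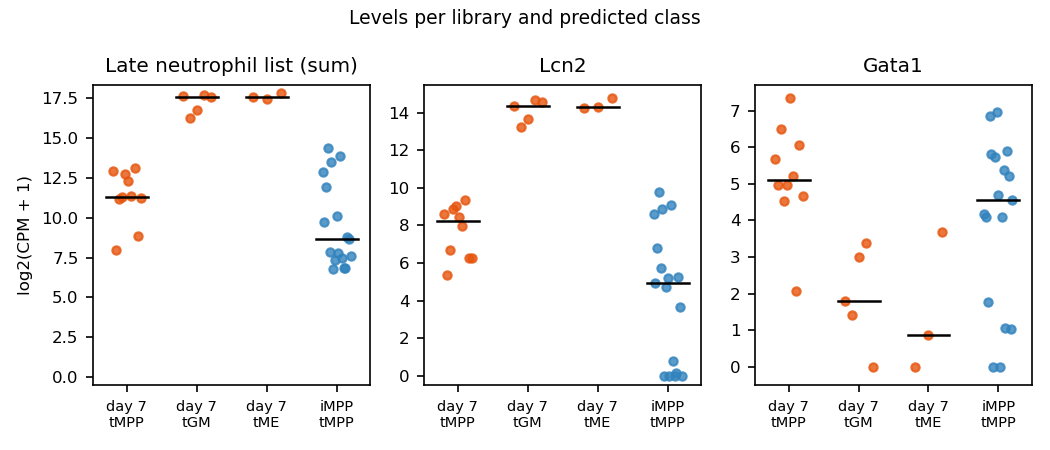
Level (log2(CPM + 1), y axis) of the summed late neutrophil list, Lcn2 and Gata1 per library in day 7 cells predicted as tMPP, tGM or tME and in iMPP cells. Points are libraries with at least 5 such cells and bars their medians. The neutrophil list is highest in both tGM and tME cells, and the Gata1 medians are lowest there.

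Restricted to tMPP types, 142 genes were higher and 116 lower (258 of 10998, 2.35%; 1.29% higher and 1.05% lower). Higher genes were 55% of these calls, 39.5% of the 641 calls by DESeq2 and 87.5% of the 879 calls by limma on mean log values per cell, a fit whose median log2 change over all genes was 0.22. Without the Y-positive libraries 168 genes were called (1.62%), 47% of them higher. The call count fell to 168 without L62 and rose to 402 without L78. In this fit by edgeR no member of the late neutrophil list was called in either direction (0 of 18, median log2 change 0.03). Also 0 of the 18 had an unadjusted p under 0.05, against 1800 of all 10998 genes. Cd177 had a log2 change of 0.73 ± 1.12 (adjusted p = 0.815), Lcn2 of 0.88 ± 0.97 and Anxa1 of 0.31 ± 0.30. This fit shares its iMPP sums with that over all types, so the values of both stand side by side below and are not independent.

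The result for the neutrophil list in tMPP cells depended on the fit. A limma voom fit of 46 sums per library and predicted tMPP type (16 of day 7 and 30 of iMPP), with the type as a covariate and the library as a random block, called 451 of 10118 genes (4.46%; 2.11% higher and 2.35% lower). There 4 of 17 late neutrophil members were higher and 0 lower, and the median log2 change was 3.66. The 4 were the calprotectin subunit S100a9 (log2 change 5.45 ± 1.35, adjusted p = 0.00877), the chitinase-like protein Chil3 (5.02 ± 1.33, adjusted p = 0.0163), Cd177 (3.72 ± 1.0, adjusted p = 0.0189) and Il1r2 (3.2 ± 0.90, adjusted p = 0.0263), while Lcn2 was not called (4.52 ± 1.69, adjusted p = 0.119). In the tMPP sums per library by edgeR, 8 of 18 members were higher against the iMPP libraries numbered above 46 alone (median 5.03). There 0.63% of all genes were higher and 1.21% called. Without the Y-positive libraries 0 of 18 were higher (median -0.44), against 0.761% of all genes. In that fit 0 of 18 also had an unadjusted p under 0.05, against 1513 of all 10378 genes.

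Of the 32 named genes called in tMPP types, 30 were tested with the type as covariate, all 30 in the same direction, and 19 were called. Both fits drew on the same tMPP cells and the genes were picked by their calls there, so the shared direction is not independent support. The 11 that were not called were Fos, Klf6, Dusp2, Hlf, Notch1, Ccl4, Ccne1, Csf2rb, Csf2rb2, Nusap1 and Spp1.

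**Figure D3:**
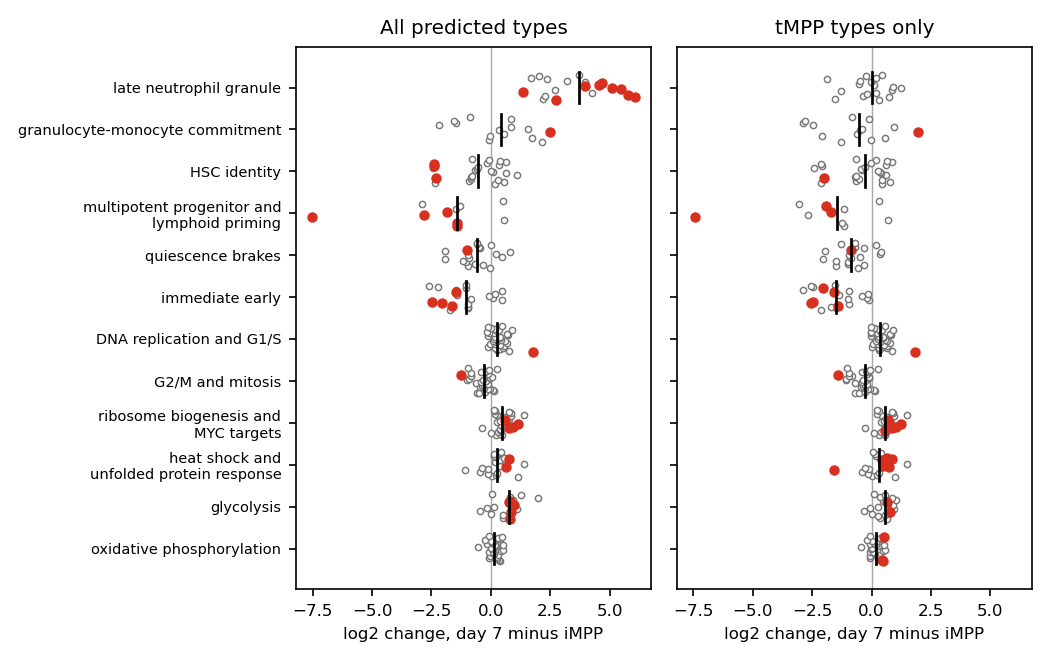
Log2 change, day 7 minus iMPP (x axis), of the tested members of 12 gene lists, over all predicted types (left) and in tMPP types only (right). Red points passed adjusted p under 0.05 and black bars are list medians. The late neutrophil median is 3.7 on the left and 0.03 on the right (not drawn is the fit with the type as covariate, where it was 3.66), while the medians of ribosome biogenesis (0.45 and 0.57) and immediate early genes (-1.06 and -1.51) lie on opposite sides of 0 in both.

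Several progenitor and lymphoid priming genes were lower in day 7 cells. Over all types, 5 of 10 tested members fell and 0 rose (median log2 change -1.44), and in tMPP types 3 of 10 fell (-1.48), against 1.53% and 1.05% of all genes lower. Kit, the receptor of stem cell factor (chr5:75574916-75656722), lay at 24 to 79.2 CPM (median 48.7) in the 10 day 7 libraries and 43.2 to 273 CPM (median 143) in the 17 iMPP libraries in tMPP cells. Each of the 10 day 7 libraries stayed below the iMPP median and 4 below every iMPP library (log2 change -1.7 ± 0.27, adjusted p = 0.000394; all types -1.85 ± 0.26, 0.000124; without the Y-positive libraries -1.87, 0.00199). Kit, Flt3 and Cd34 encode surface proteins on which such progenitor sorts usually rest, and the day 7 cells were annotated by GFPP alone, so the sort and the transplantation cannot be told apart for these genes.

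Dntt, the terminal deoxynucleotidyl transferase of early lymphoid cells (chr19:41029275-41059525), lay at 0 to 7.4 CPM (median 1.14) in the 10 day 7 libraries and 0 to 1251 CPM (median 50.3) in the 17 iMPP libraries. All 10 day 7 libraries were below the iMPP median, yet 4 iMPP libraries held no count (log2 change -7.44 ± 1.56, adjusted p = 0.00627; without the Y-positive libraries -7.41, 0.00573). In iMPP the level was high in some sorts only. Pooled over cells, Dntt stood at 926 CPM in LMPP, 715 in MPP4, 292 in HPC3 and 78.3 in ST_HSC, and at 3.2 CPM or less in MPP1, MPP2, MPP3, HPC2 and Fraction II, beside 1.68 in day 7 tMPP cells. By predicted type, Dntt lay at 0 to 20 CPM (median 2.39, n = 4) on day 7 and 31.4 to 1171 CPM (median 800.2, n = 5) in iMPP among tMPP5 cells, and at 0 to 9.73 CPM (median 4.86, n = 2) and 62.2 to 832 CPM (median 394, n = 8) among tMPP4 cells. The groups did not overlap within either type. Groups of so few libraries can separate by chance. Here and below, the share of all genes whose groups did not overlap was not counted, so no excess is claimed. Kit differed from the pattern by sort, since its lowest pooled level in a sort, 84.7 CPM in ST_HSC, was above the 45.7 CPM of day 7 tMPP cells.

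The cytokine receptor Flt3 resembled Dntt, with pooled levels of 303 CPM in LMPP, 221 in MPP4 and 201 in HPC3, 16.8 in day 7 tMPP cells and 3.2 to 13.8 in MPP1, MPP2, MPP3, HPC2 and Fraction II. Over all types its libraries lay at 2.2 to 48.5 CPM (median 11.9) in the 10 day 7 libraries and 1.42 to 377 CPM (median 38.6) in the 17 iMPP libraries, and 9 day 7 libraries were below the iMPP median (log2 change -2.83 ± 0.81, adjusted p = 0.0421). In tMPP types it was not called (-2.68 ± 0.79, 0.0631), and over all types any of 9 day 7 and 6 iMPP libraries left out ended the call (adjusted p up to 0.0801). At an equal depth of 20000 counts and over all predicted types, Flt3 was detected in 9.11 ± 8.92% of day 7 and 43 ± 35.1% of iMPP cells (SD, n = 10 and 17 libraries, permutation test, p = 0.00252, adjusted over 8 genes p = 0.0170). The surface sialomucin Cd34 fell over all types (log2 change -1.41 ± 0.39, adjusted p = 0.0313), as did the TNF receptor Cd27 (-1.41 ± 0.38, 0.0304), with tMPP values of -1.25 ± 0.37 (0.0648) and -1.16 ± 0.38 (0.0932). Both lost the call without L47, L60, L61 or L62, Cd27 also without L58 and Cd34 without L59 or L78 (adjusted p up to 0.0623 and 0.0668), and without the Y-positive libraries (0.0975 and 0.0732). Notch1, the receptor that directs T lineage choice, fell in tMPP types (-1.92 ± 0.52, 0.0361) and lost the call without any of L49, L55, L58, L60 to L63 or the iMPP library L53 (up to 0.0697).

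**Figure D4:**
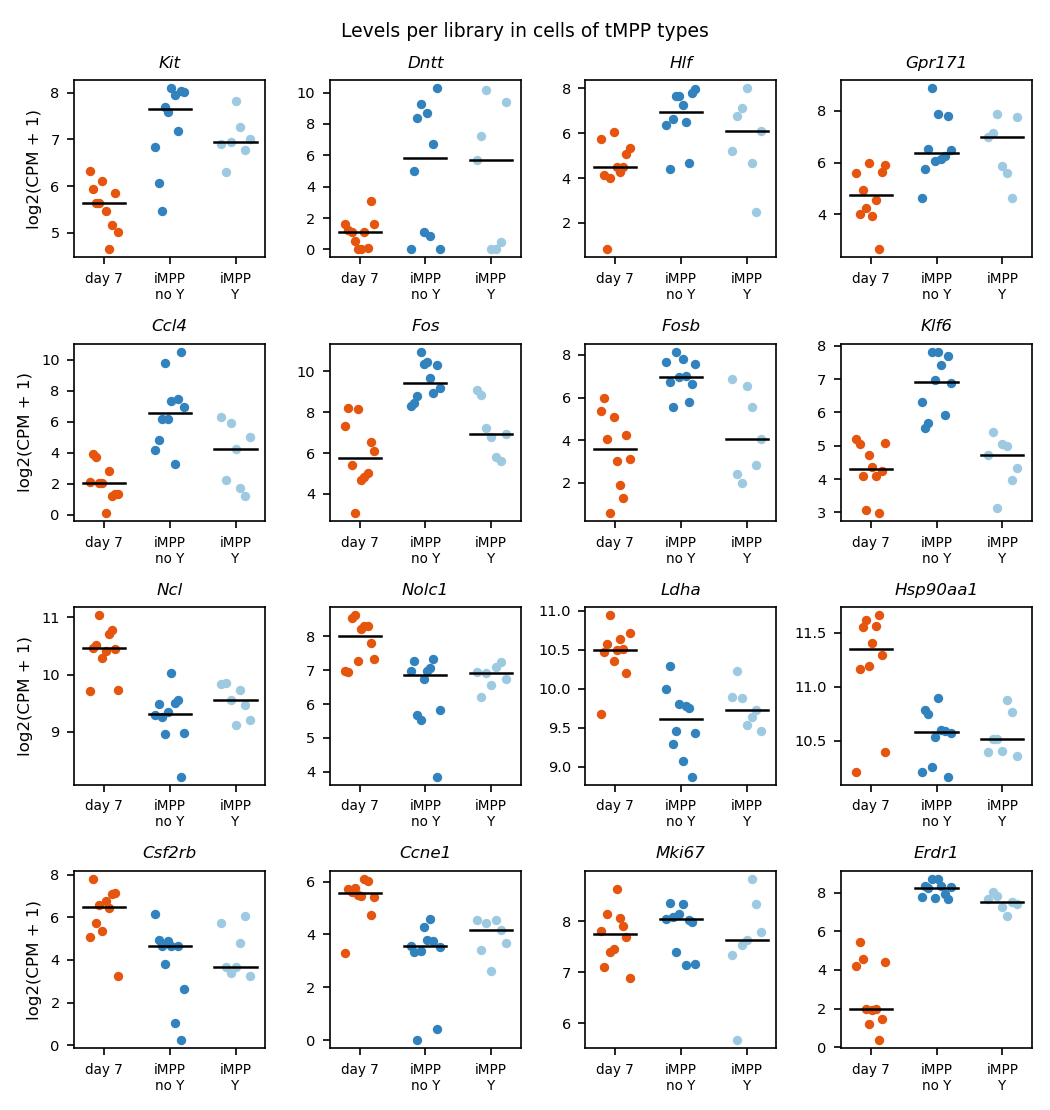
Level (log2(CPM + 1), y axes) of 16 genes in cells of tMPP types, per library, for the 10 day 7 libraries and for the iMPP libraries without (n = 10) and with (n = 7) Y-linked counts. Points are libraries and bars medians. Erdr1 is the gene whose day 7 and iMPP libraries do not overlap at all, Kit, Dntt and Hlf are lower and Ncl, Ldha and Ccne1 higher on day 7, and Mki67 overlaps.

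Among 25 stem cell identity genes 3 fell over all types (1.53% of all genes did) and 1 in tMPP types (1.05%), with 0 higher (medians -0.54 and -0.30). Without the Y-positive libraries 1 of 23, Ifitm1, was higher in both comparisons (0.886% and 0.761% of all genes were). There 2 members fell over all types (0.876% of all genes did) and 1 in tMPP types (0.858%). The transcription factor Hlf, a marker of stem and early progenitor cells (chr11:90336536-90390895), lay at 0.771 to 65.6 CPM (median 21.5) in the 10 day 7 libraries and 4.6 to 256 CPM (median 98.2) in the 17 iMPP libraries in tMPP cells. All 10 day 7 libraries were below the iMPP median, with L55 below every iMPP library (log2 change -2.01 ± 0.51, adjusted p = 0.0231; all types -2.3 ± 0.50, 0.00702). Leaving out L58 or L61 ended the tMPP call (up to 0.0527), and leaving out the Y-positive libraries did not (-2.23, 0.0153). With the type as covariate Hlf was not called (log2 change -0.87 ± 0.31, adjusted p = 0.0987). At equal depth Hlf was detected in 23.1 ± 17.6% of day 7 and 51.5 ± 24.3% of iMPP cells (permutation test, p = 0.00426, adjusted p = 0.0170). Neither this call nor that of Flt3 held when libraries needed at least 10 cells, and the Flt3 call also ended without thinning. The membrane protein Pdzk1ip1 fell over all types (-2.37 ± 0.66, 0.0348) and had a tMPP value of -2.08 ± 0.65 (0.0797). It lost its all-types call without L49, L55, L58 to L62 or the iMPP libraries L49 and L74 (up to 0.0671). Procr, which encodes the protein C receptor of stem cells, was not called (0.59 ± 0.75, 0.762), nor was it in the shares of cells with a count (14.5% against 15.3%, adjusted p = 0.907).

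Within predicted types the stem cell list divided. Of 22 members the limma voom fit with the type as a covariate called 6 higher (2.11% of all genes were) and 4 lower (2.35%). The higher ones, named after their values were seen, were Ly6a (Sca-1; log2 change 1.74 ± 0.21, adjusted p = 7.38e-08), Ifitm1 (1.69 ± 0.26, adjusted p = 1.19e-05), Ifitm3 (0.94 ± 0.17, adjusted p = 0.000281), the adhesion molecule Esam (1.87 ± 0.36, adjusted p = 0.000544), Slamf1 (CD150; 1.85 ± 0.48, adjusted p = 0.0137) and Procr (1.73 ± 0.47, adjusted p = 0.0184). The lower ones included Pdzk1ip1 (-1.66 ± 0.34, adjusted p = 0.00108) and Ctsf (-2.61 ± 0.71, adjusted p = 0.0211). None of the 6 higher ones passed in the tMPP comparison that ignored the type, where Ly6a had a log2 change of 0.37 ± 0.50 (adjusted p = 0.775). Pooled over cells, each of the 6 in day 7 tMPP cells lay within the range of the 9 sorts. Ly6a stood at 196 CPM beside 297 in LMPP, and Ifitm1 and Ifitm3 at 1846 and 1658 beside 3171.5 and 1950 in ST_HSC. Procr, Esam and Slamf1 stood at 26, 63.3 and 15.5 beside 72.4, 196 and 32.4 in Fraction II.

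Between types the levels of Ly6a differed widely. In tMPP4 cells Ly6a lay at 929.6 to 1172 CPM (median 1051, n = 2) on day 7 and 195 to 378 CPM (median 288, n = 8) in iMPP, and in tMPP5 cells at 435 to 836 CPM (median 576, n = 4) and 64 to 237 CPM (median 119, n = 5). The groups did not overlap in these types, and the share of all genes of which this holds was not counted. In tMPP2, 22.3 to 133 CPM (median 72.4, n = 5) overlapped with 3.63 to 151 CPM (median 46.3, n = 8), and in tMPP3 both stayed under 35 CPM. Ifitm1, an interferon-inducible membrane protein, separated in tMPP3, with 1604 to 2672 CPM (median 2417, n = 4) against 49.8 to 672 CPM (median 485, n = 4), although the interferon response list as a whole had 0 called members of 29 over all types. Ly6a and Slamf1 are themselves sort markers of the steady state populations. The type names were predicted by the authors, and whether the same genes entered that prediction is not given in the sources used here.

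**Figure D5:**
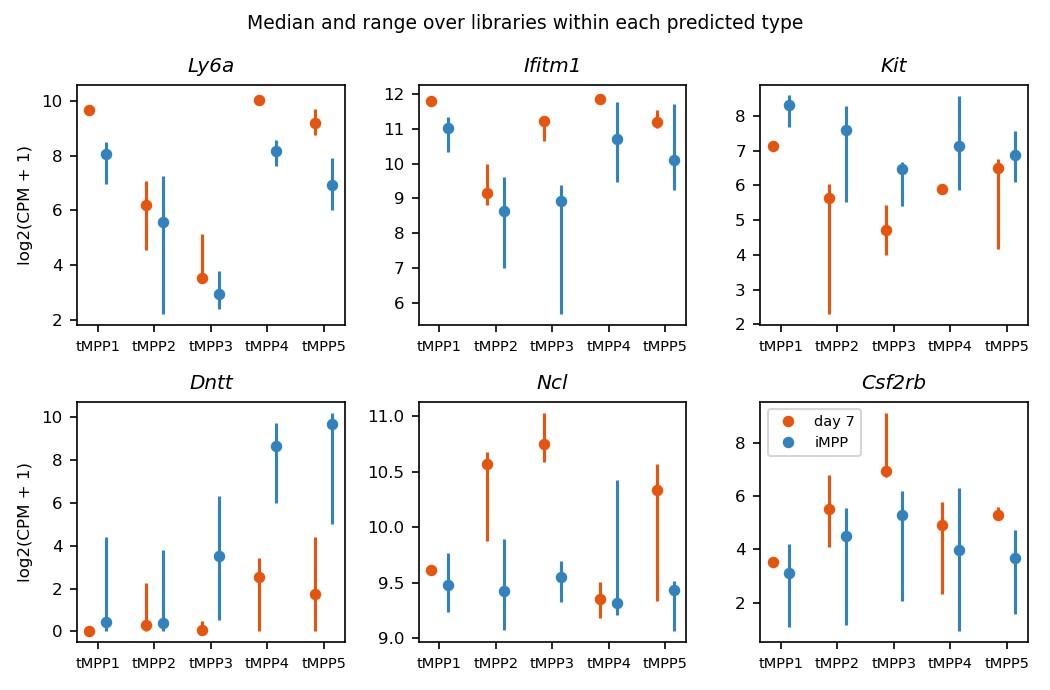
Level (log2(CPM + 1), y axes) of 6 genes in day 7 and iMPP sums within each predicted tMPP type. Points are medians and lines the range over libraries (1 to 5 libraries for day 7, 4 to 8 for iMPP). Ly6a of day 7 cells lies above the iMPP range in tMPP4 and tMPP5, and Ncl in tMPP3.

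Immediate early genes, the transcription factors and feedback phosphatases induced within minutes of a stimulus, were called lower in part. Over all types 4 of 20 fell (1.53% of all genes did), and in tMPP types 5 of 20 fell (1.05%) and 0 rose, with no tMPP value above a log2 change of 0 (median -1.51). Fos (chr12:85473890-85477273), a subunit of AP-1, lay at 7.39 to 299 CPM (median 55.3) in the 10 day 7 libraries and 48.5 to 1997 CPM (median 461) in the 17 iMPP libraries in tMPP cells. All 10 day 7 libraries were below the iMPP median and 5 below every iMPP library (log2 change -2.57 ± 0.60, adjusted p = 0.0134; all types -2.06 ± 0.55, 0.0278). Its paralogue Fosb (chr7:19302696-19310051) lay at 0.51 to 62 CPM (median 11.7) in the 10 day 7 libraries and 3.0 to 283 CPM (median 98.7) in the 17 iMPP libraries, with 3 day 7 libraries below every iMPP library (-2.46 ± 0.67, 0.041). Dusp2, which dephosphorylates MAP kinases, changed by -1.43 ± 0.40 (0.0491), the AP-1 subunit Jund by -1.6 ± 0.44 (0.0398) and the zinc finger factor Klf6 by -2.04 ± 0.47 (0.0127; all types -1.07 ± 0.48, 0.221).

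Fos and Klf6 kept their tMPP calls in edgeR whichever library was left out. In the same fit Fosb lost its call without 7 of the day 7 libraries or 7 of the iMPP libraries taken singly (up to 0.0809), Jund without 7 and 5 (up to 0.0872) and Dusp2 without 8 and 9 (up to 0.102); over all types Fos lost its call without L58, L61 or L62 (up to 0.0583). Without the Y-positive libraries the list had 8 of 20 members lower over all types (0.876% of all genes were) and 10 of 18 in tMPP types (0.858%), and Fos changed by -3.12 (adjusted p = 0.00285). The level of these genes varied between the steady state sorts, from 147 CPM of Fos in MPP3 to 863 in HPC2 (cells pooled), beside 76.6 in day 7 tMPP cells. Fosb and Dusp2 of day 7 tMPP cells were not below every sort. Fosb stood at 10.4 CPM in MPP3 beside 12.3 on day 7, and Dusp2 at 37.8 in ST_HSC and 41.2 in MPP2 beside 41.7. With the type as covariate Fosb (-2.8 ± 0.63, adjusted p = 0.00373), Jund (-1.11 ± 0.32, adjusted p = 0.0274), Jun and Btg2 were lower. Fos (-1.39 ± 0.54, adjusted p = 0.136), Klf6 (-0.70 ± 0.41, adjusted p = 0.399) and Dusp2 (-0.82 ± 0.27, adjusted p = 0.068) were not called there.

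Some genes for making ribosomes were higher in day 7 cells. Of 30 members 4 rose over all types (2.34% of all genes did) and 6 in tMPP types (1.29%), 0 fell, and the medians were 0.45 and 0.57. Ncl, the major nucleolar protein nucleolin (chr1:86344719-86359400), lay at 835 to 2095 CPM (median 1402) in the 10 day 7 libraries and 297 to 1038 CPM (median 705) in the 17 iMPP libraries in tMPP cells. Of the day 7 libraries, 8 exceeded every iMPP library and all 10 the iMPP median (log2 change 1.03 ± 0.15, adjusted p = 0.000291; without the Y-positive libraries 1.12, 0.00225). The nucleolar chaperone Nolc1 (chr19:46075863-46085530) lay at 123 to 393 CPM (median 258) in the 10 day 7 libraries and 13.5 to 160.4 CPM (median 119) in the 17 iMPP libraries, with 7 day 7 libraries above every iMPP library (1.25 ± 0.26, 0.0062). Mybbp1a, a nucleolar regulator of RNA polymerase I, changed by 0.85 ± 0.16 (0.00193). Nucleophosmin, encoded by Npm1, changed by 0.71 ± 0.13 in tMPP types (0.00123) and 0.60 ± 0.15 over all types (0.0164), where limma on mean log values gave -0.03. The rRNA methyltransferase Fbl (0.55 ± 0.15, 0.0412) and Nop16 (0.74 ± 0.18, 0.0224) completed the tMPP calls. Within tMPP3, Ncl did not overlap between day 7 (1535 to 2089.6 CPM (median 1713, n = 4)) and iMPP (640.4 to 827 CPM (median 748, n = 4)). Without the Y-positive libraries 2 members rose over all types (0.886% of all genes did) and 4 in tMPP types (0.761%). Against the iMPP libraries numbered above 46, edgeR called 0 of 30 over all types (2.17% of all genes) and 2 of 30 in tMPP types (1.21%). Over all types 10 members had an unadjusted p under 0.05 there, as had 1869 of 11447 genes. With the type as covariate 4 members were higher (2.11% of all genes were), with Ncl changed by 1.0 ± 0.13, adjusted p = 1.98e-07 (limma voom).

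The promoters of 2 genes that fell (Fos, Fosb) and 2 that rose (Ncl, Nolc1) are shown because these pairs carry the opposite changes named above. They are the 250 bases before the start site that RefSeq (GRCm38.p6) gives, 5′ to 3′ on the gene's strand, and the gene positions above are from GENCODE, whose start sites lie a short distance from these for Fosb, Ncl and Nolc1. They lie at Fos chr12:85473640-85473889 (plus strand), Fosb chr7:19310046-19310295 (minus strand), Ncl chr1:86359456-86359705 (minus strand), Nolc1 chr19:46075597-46075846 (plus strand). Capitals mark TGACG or its reverse complement CGTCA, the half-site of the cyclic AMP response element, which overlaps the full element.
Fos: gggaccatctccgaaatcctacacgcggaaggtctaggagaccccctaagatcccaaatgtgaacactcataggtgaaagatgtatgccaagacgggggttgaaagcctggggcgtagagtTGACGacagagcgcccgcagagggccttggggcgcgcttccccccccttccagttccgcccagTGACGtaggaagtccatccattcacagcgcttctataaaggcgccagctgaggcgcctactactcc
Fosb: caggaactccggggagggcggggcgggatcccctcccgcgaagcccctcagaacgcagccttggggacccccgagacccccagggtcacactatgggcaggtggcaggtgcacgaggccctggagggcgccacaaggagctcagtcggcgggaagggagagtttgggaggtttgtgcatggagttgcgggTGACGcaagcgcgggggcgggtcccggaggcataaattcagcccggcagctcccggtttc
Ncl: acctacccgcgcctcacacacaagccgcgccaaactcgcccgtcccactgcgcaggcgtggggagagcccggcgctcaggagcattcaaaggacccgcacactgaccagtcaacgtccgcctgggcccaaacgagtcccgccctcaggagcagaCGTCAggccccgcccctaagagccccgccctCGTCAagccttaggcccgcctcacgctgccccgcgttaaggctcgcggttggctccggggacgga
Nolc1: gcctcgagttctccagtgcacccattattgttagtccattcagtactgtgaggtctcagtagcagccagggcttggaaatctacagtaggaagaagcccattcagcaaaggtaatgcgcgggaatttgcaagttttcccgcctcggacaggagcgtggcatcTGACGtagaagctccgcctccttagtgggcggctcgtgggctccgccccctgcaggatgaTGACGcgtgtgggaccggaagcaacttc
Fos, Ncl and Nolc1 each held 2 matches and Fosb 1, on either strand, so both directions of change shared the letters. The half-site was found in 17.9% of 27025 promoter windows of this length. Neither the full element TGACGTCA (1.62% of windows) nor the E-box CACGTG (6.05%) was found in these 4 windows. Among the members called in either comparison, 2 of 5 immediate early genes, 3 of 4 ribosome biogenesis genes with an entry and 1 of 5 glycolysis genes (Ldha) held the half-site. A match describes the letters and is not evidence of a bound site.

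Of 23 members of the heat shock and unfolded protein list 5 rose (1.29% of all genes did) and 1 fell (1.05%) in tMPP types. Over all types 2 rose (2.34% of all genes did) and 0 fell. When the Y-positive libraries were left out, 4 rose (0.761% of all genes did) and 1 fell (0.858%) in tMPP types. Over all types edgeR then called 0 (1.76% of all genes), and 7 had an unadjusted p under 0.05, as had 1609 of 10499 genes. Against the iMPP libraries numbered above 46, 0 rose (0.63% of all genes did) and 1 fell in tMPP types (1.21% of all genes were called). There 11 had an unadjusted p under 0.05, as had 1691 of 11109 genes. Over all types 0 of 24 were called (2.17% of all genes), and 9 had an unadjusted p under 0.05, as had 1869 of 11447 genes. Hsp90aa1, the inducible HSP90, lay at 1186 to 3239 CPM (median 2609) in the 10 day 7 libraries and 1149 to 1909.6 CPM (median 1482) in the 17 iMPP libraries, with 8 day 7 libraries above every iMPP library (log2 change 0.72 ± 0.13, adjusted p = 0.00139). The mitochondrial chaperonin Hspd1 changed by 0.87 ± 0.18 (0.00673). Both also passed over all types (0.0177 and 0.0233), Hspd1 not without L58, L61 or L62 (up to 0.070), and neither over all types without the Y-positive libraries (0.0975 and 0.0732). Hsp90ab1, Hspa8 and Hspe1 also rose in tMPP types, and Dnajb9, a chaperone of the endoplasmic reticulum, fell (-1.58 ± 0.33, 0.00659).

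Of 19 glycolysis genes 5 rose over all types (2.34% of all genes did) and 2 in tMPP types (1.29%), with 0 lower (medians 0.75 and 0.55). In the fits without the Y-positive libraries 4 and 1 rose (0.886% and 0.761% of all genes did), and Ldha was the 1 in tMPP types. Ldha, the lactate dehydrogenase subunit that closes anaerobic glycolysis, lay at 818 to 1965 CPM (median 1447) in the 10 day 7 libraries and 467 to 1247 CPM (median 846) in the 17 iMPP libraries in tMPP cells. All but 2 day 7 libraries were above every iMPP library (log2 change 0.79 ± 0.14, adjusted p = 0.000996; without the Y-positive libraries 0.84, 0.00734). Phosphoglycerate kinase, encoded by Pgk1, changed by 0.67 ± 0.15 (0.00903; 0.052 without the Y-positive libraries). Pyruvate kinase Pkm and aldolase Aldoa rose over all types (0.81 ± 0.18, 0.00675; 0.82 ± 0.18, 0.00704) and had tMPP values of 0.50 ± 0.17 (0.105) and 0.64 ± 0.18 (0.0509). The phosphofructokinase Pfkp passed narrowly over all types (0.97 ± 0.29, 0.050) and lost the call in 20 of 27 fits that left out 1 library (up to 0.135). Of 30 oxidative phosphorylation genes 0 were called over all types and 3 rose in tMPP types, among them the ATP synthase subunit Atp5a1 (0.47 ± 0.11, 0.0105; all types 0.39 ± 0.12, 0.0619; without the Y-positive libraries 0.0604).

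In both comparisons each cell cycle list had 1 called member. Of all genes, 2.34% were higher and 1.53% lower over all types, and 1.29% and 1.05% in tMPP types. Whether the lists departed from these shares was not tested. The median log2 change of replication and G1/S genes was 0.27 over all types and 0.35 in tMPP types. That of G2/M genes was -0.30 and -0.29. In tMPP types 87.9% of the former and 9.38% of the latter lay above 0, beside 46.2% of all genes, which was not tested either. Of 33 replication and G1/S genes 1 rose, Ccne1, the cyclin E1 that drives entry into S phase, which lay at 8.92 to 67.6 CPM (median 46) in the 10 day 7 libraries and 0 to 22.9 CPM (median 11.7) in the 17 iMPP libraries in tMPP cells. Day 7 exceeded every iMPP library in 9 of 10 libraries (log2 change 1.81 ± 0.42, adjusted p = 0.0136; all types 1.76 ± 0.43, 0.0148), and L47 was the low one. Without the Y-positive libraries its adjusted p was 0.0422 in tMPP types and 0.0552 over all types. Of 32 G2/M genes 1 fell, Nusap1, which binds spindle microtubules (-1.42 ± 0.33, 0.0139; all types -1.28 ± 0.35, 0.0311, lost without L49, L61 or L62, up to 0.0593). The proliferation marker Mki67 lay at 117 to 396 CPM (median 215) in the 10 day 7 libraries and 49.7 to 454 CPM (median 251) in the 17 iMPP libraries and was not called (log2 change -0.10 ± 0.23, adjusted p = 0.887), and its direction changed sign between settings. Top2a, the topoisomerase of dividing cells, was not called either (-0.41 ± 0.22, 0.361). Among the quiescence brakes 1 of 19 fell, the nuclear factor Nfix, from 41.4 to 117 CPM (median 88.8) in iMPP to 23.1 to 67.5 CPM (median 46) on day 7 (-0.88 ± 0.21, 0.0183; without the Y-positive libraries 0.0491).

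Beta chain genes of the interleukin 3 and GM-CSF receptor family were higher. Csf2rb (chr15:78325752-78353847) lay at 52 to 227 CPM (median 132) in the 10 day 7 libraries and 0.181 to 71 CPM (median 23.7) in the 17 iMPP libraries over all types. Every iMPP library was below 8 of the day 7 libraries (log2 change 2.5 ± 0.46, adjusted p = 0.00159; without the Y-positive libraries 0.0185). In tMPP types the change was 1.94 ± 0.50 (0.0269), and the call ended without L49, L62 or L63 (up to 0.0755) and without the Y-positive libraries (0.0869). By type, the highest levels were in tMPP3, with 104 to 555 CPM (median 122, n = 4) against 3.17 to 71.2 CPM (median 38.1, n = 4), which did not overlap. Its neighbour Csf2rb2 (chr15:78282507-78305721), a near copy with which reads may be shared, changed by 3.17 ± 0.60 over all types (0.00204) and 2.63 ± 0.72 in tMPP types (0.0396, lost without L49, L55, L60, L62, L63 or any of 5 iMPP libraries, up to 0.105). Csf2rb was the 1 called member of 14 on the granulocyte-monocyte commitment list in either comparison. Of all genes, 3.86% were called over all types and 2.35% in tMPP types. The median log2 change of this list was 0.44 over all types and -0.54 in tMPP types. In the limma voom fit with the type as covariate 0 of 13 members were higher (2.11% of all genes were) and 2 lower (2.35%). Csf2rb was not called there (1.63 ± 0.63, adjusted p = 0.139).

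Of 22 homing and adhesion genes 2 rose and 2 fell over all types, and 1 rose and 3 fell in tMPP types. Of all genes, 2.34% rose and 1.53% fell over all types, and 1.29% and 1.05% in tMPP types. Gpr171, an orphan receptor of progenitors, lay at 5.25 to 61.8 CPM (median 26.1) in the 10 day 7 libraries and 23.8 to 469.8 CPM (median 89.1) in the 17 iMPP libraries in tMPP cells. In 5 day 7 libraries the level was below every iMPP library (log2 change -2.02 ± 0.44, adjusted p = 0.00883; without the Y-positive libraries 0.018). The selectin ligand gene Selplg fell in tMPP types (-1.0 ± 0.25, 0.0228). Osteopontin, encoded by Spp1, was far higher in L61, which had 232 CPM against a median of 11.1 over the day 7 libraries, and without L61 its adjusted p went from 0.0405 to 0.385 in tMPP types and from 0.0194 to 0.192 over all types. In tMPP types its call also ended in 13 other fits that left out 1 library. The leukocyte integrin beta 2 chain Itgb2 rose over all types (2.6 ± 0.53, 0.00379) and was not called in tMPP types (0.65 ± 0.45, 0.501). Endoglin, encoded by Eng, a TGF-beta co-receptor of endothelial and stem cells, fell over all types (-1.41 ± 0.33, 0.0123), with -1.19 ± 0.34 in tMPP types (0.0502).

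The remaining named genes with the largest changes in tMPP types were 2 that rose and several that fell. Ccdc180, a coiled-coil protein, lay at 2.91 to 146 CPM (median 50.3) in the 10 day 7 libraries and 0 to 21.9 CPM (median 4.06) in the 17 iMPP libraries, with 6 day 7 libraries above every iMPP library (log2 change 3.37 ± 0.68, adjusted p = 0.00476). The prostacyclin receptor Ptgir lay at 0 to 17.4 CPM (median 6.2) in the 10 day 7 libraries and 0 to 2.16 CPM (median 0.155) in the 17 iMPP libraries (3.37 ± 0.93, 0.044), a call lost in 16 of 27 fits that left out 1 library (up to 0.113). Ccl4, a chemokine of activated myeloid cells, lay at 0.0899 to 14.2 CPM (median 3.13) in the 10 day 7 libraries and 1.36 to 1474 CPM (median 58.6) in the 17 iMPP libraries; all 10 day 7 libraries were below the iMPP median and 13 iMPP libraries above every day 7 library (-5.48 ± 1.06, 0.00308). In iMPP its pooled level ran from 15.4 CPM in MPP2 to 309 in MPP4. Paqr5, a progestin receptor family member, fell by 5.16 on the log2 scale (0.00396) and the Toll-like receptor relative Cd180 by 4.65 (0.0206), from medians of 12.7 and 1.24 CPM in iMPP. Bdh2, a ketone body dehydrogenase relative, fell over all types (-4.74 ± 1.12, 0.0124), as did the proteoglycan Bgn (-4.79 ± 1.41, 0.0479) and the ubiquitin ligase relative Rnf208 (-4.67 ± 1.34, 0.0414). Bgn and Rnf208 lost their calls in 14 and 9 fits that left out 1 library (up to 0.085 and 0.0791) and were not called in tMPP types (0.0678 and 0.0747).

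Erdr1 was the 1 named gene whose groups did not overlap in either comparison, with 0.285 to 42.9 CPM (median 2.89) in the 10 day 7 libraries and 111 to 416 CPM (median 223) in the 17 iMPP libraries. No day 7 library reached the lowest iMPP library (log2 change -4.52 ± 0.55, adjusted p = 1.02e-05). The gene had no position in the annotation used, and its multiple copies near the pseudoautosomal region make its counts uncertain. It was as low without the Y-positive libraries (-4.78, 0.000222), and its pooled level was 180.3 CPM or more in each of the 9 sorts, against 6.23 CPM in day 7 tMPP cells.

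Several lists had no called member over all types, and for the following the member with the smallest p is given as a value: Hemgn of the erythroid list (-1.51 ± 0.49, 0.0742), the haem oxygenase Hmox1 of the macrophage list (2.26 ± 0.72, 0.0687), Vpreb1 of B cells (-2.71 ± 1.25, 0.234), Lck of T cells (-1.45 ± 0.76, 0.312), Dhcr7 of cholesterol synthesis (-1.05 ± 0.42, 0.159), Ifih1 of the interferon response (0.84 ± 0.35, 0.185) and Perp of the p53 response (2.69 ± 0.84, 0.0641). Of the mast cell list Ccl4 was the 1 called member of 10, of the dendritic cell list Flt3 the 1 of 7 and of the stromal list Eng the 1 of 7. Of all genes, 3.86% were called over all types. Gata1 was not called in either comparison (0.50 ± 0.68, 0.763 over all types). The macrophage list summed to 141 to 1342 CPM on day 7, highest in L78, and 53.1 to 1563 CPM in iMPP, with 17 and 16 of 17 members detected; its part in the results was not tested. The adult globin genes Hba-a1, Hba-a2, Hbb-bs and Hbb-bt stood at 0 in both groups, and Pax5 and Cdh5 did too.

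Against cells collected on day 5, 69 of 12352 genes differed (0.559%; 58 higher, 0.47%, and 11 lower, 0.0891%, on day 7), in a fit of both days with iMPP. Of the named genes, 4 differed. Il1r2 (6.8 ± 1.5, adjusted p = 0.0246), Anxa1 (3.12 ± 0.60, adjusted p = 0.00941) and Csf2rb (2.59 ± 0.60, adjusted p = 0.0325) were higher on day 7 and Dusp2 was lower (-2.59 ± 0.47, adjusted p = 0.0086), from 234 ± 139 CPM on day 5 (SD, n = 7). The immediate early list had 5 of 22 members lower on day 7 than on day 5, and the late neutrophil list 4 of 19 higher, all types counted. For Ncl (0.20 ± 0.20, adjusted p = 0.805), Hsp90aa1 (-0.02 ± 0.18, adjusted p = 0.983), Ccne1 (0.46 ± 0.50, adjusted p = 0.826) and Dntt (-0.09 ± 1.42, adjusted p = 0.991) no difference between the days was called. Kit stood at 98.8 ± 28.8 CPM on day 5, and its difference missed the threshold (-1.14 ± 0.29, adjusted p = 0.0503).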

How the data were processed

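Single mouse cells were profiled by a modified Smart-seq2 protocol that reads mRNA 3' ends. The authors deposited a table of raw read counts per gene and cell (23154 genes, 2879 cells, 2301 of them annotated), and TopHat, HTSeq and mm10 are named per the submitters' processing notes. Their versions, and whether molecules were counted, are not given in the sources used here. Mitochondrial genes (mt-) numbered 0.

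For each library, the counts of its day 7 and of its iMPP cells were added up (at least 5 cells). Day 7 and iMPP sums were compared with edgeR 4.0.16 (R 4.3.3; filterByExpr, TMM, two-sided quasi-likelihood test), adjusted over all genes tested by Benjamini-Hochberg and called under 0.05. CPM of genes are TMM-scaled, whereas sums of lists and levels by class, type or sort are not. In simulated data of the all-types comparison (11076 genes), 59 of 100 genes changed 4-fold and 17 of 100 changed 2-fold were recovered; for tMPP types (10998 genes) 61 and 23 were. Smaller changes can thus be missed.

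Shares of cells with a count used day 7 cells of all predicted types and iMPP cells, thinned to 20000 counts, and a two-sided permutation test over libraries (100000 resamples). Alternatives used DESeq2 1.42.0, limma 3.58.1, other filters, sums of at least 10 cells, subsets of iMPP and each library left out.

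The named genes are the 8 called genes with the largest change in each direction over all types and 4 in tMPP types, up to 3 called members per list (1 of smallest p where none was called), and Mki67, Top2a, Mpo, Elane, Flt3, Hlf, Procr and Gata1. Cd34, Jund, Klf6, Npm1, Lcn2, Aldoa, Pfkp, Notch1, Fbl, Nop16, Selplg, Dnajb9, Hsp90ab1, Hspa8, Hspe1, Jun, Btg2 and those from the fit with the type as covariate (Ly6a, Ifitm1, Ifitm3, Esam, Slamf1, Ctsf, S100a9, Chil3) were named after their values were seen. Values of certain genes picked this way are left out of the text; list counts include these genes. The members and the 25 gene lists were chosen with earlier results of these data known. Promoters are from RefSeq (GRCm38.p6) and gene positions from GENCODE on the same build.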

Additional observations from a re-analysis of the deposited data

Results flagged for a closer look

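For each named gene, the 10 day 7 libraries were searched for 1 library whose gap to the nearest other was more than 0.466 of the whole range. That held in 32 of 131 groups of 10 libraries. The cut-off flags about 1 in 20 groups by chance (6.6 of 131) if levels are normally distributed, which was not tested for these CPM. All flags except that of Itgb2 in tMPP types were at the high end. The groups over all types and in tMPP types also share libraries. Whether 32 flags exceed chance therefore cannot be decided here. All values are CPM, first over all types and then in tMPP types where both apply.

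In L49, Cd34 was highest, at 313 over all types (others 42.9 to 149) and 314 in tMPP types (others 47.5 to 180.0). Erdr1 was highest, at 42.8 over all types (others 0.333 to 22.2) and 42.9 in tMPP types (others 0.285 to 22.4). Itgb2 was lowest, at 1.77 in tMPP types (others 32.4 to 67.1). Perp was highest, at 84.7 over all types (others 0.382 to 16.3) and 85 in tMPP types (others 0.385 to 17.7). In L55, Ccdc180 was highest, at 145 over all types (others 4.32 to 65.3) and 146 in tMPP types (others 2.91 to 65.5). In L59, Bdh2 was highest, at 6.83 in tMPP types (others 0 to 2.21). Ctsc was highest, at 226 over all types (others 60.9 to 135). Dusp2 was highest, at 105 in tMPP types (others 21.9 to 56.3). Itgb2 was highest, at 548 over all types (others 1.76 to 280.3). Lrg1 was highest, at 2689.6 over all types (others 0 to 1406). Notch1 was highest, at 52.9 over all types (others 0.382 to 22.5). Rnf208 was highest, at 1.21 over all types (others 0 to 0.194) and 1.85 in tMPP types (others 0 to 0.180). In L61, Spp1 was highest, at 238 over all types (others 0 to 36.3) and 232 in tMPP types (others 0 to 34.3). In L62, Anxa1 was highest, at 443 in tMPP types (others 58.6 to 250.1). Elane was highest, at 5408 over all types (others 0.241 to 1714) and 5552 in tMPP types (others 0.0899 to 1754). Mpo was highest, at 5744 over all types (others 6.58 to 2934). In L63, Dntt was highest, at 7.29 over all types (others 0 to 1.94) and 7.4 in tMPP types (others 0 to 2.13). Paqr5 was highest, at 3.04 over all types (others 0 to 1.03) and 3.09 in tMPP types (others 0 to 0.685). In L78, Cd180 was highest, at 0.748 in tMPP types (others 0 to 0.399). Hmox1 was highest, at 160.2 over all types (others 2.65 to 70.3) and 84.6 in tMPP types (others 2.66 to 14.7). Lck was highest, at 28.1 over all types (others 0 to 5.92) and 37.2 in tMPP types (others 0 to 7.29).

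Between day 7 and day 5, in one edgeR fit with iMPP, 4 named genes differed (log2 change, day 7 minus day 5): Anxa1 by 3.12 ± 0.60, adjusted p = 0.00941, Csf2rb by 2.59 ± 0.60, adjusted p = 0.0325, Dusp2 by -2.59 ± 0.47, adjusted p = 0.0086 and Il1r2 by 6.8 ± 1.5, adjusted p = 0.0246.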

How the results depend on the processing

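Of the values of single named genes recomputed under the alternatives, 4663 kept their direction and side of the threshold, 107 gained the call, 24 changed sign and the rest lost the call; of shares of cells 17 kept both, 4 changed sign and 3 lost the call. Each call count covers the genes it tested, and where it moved the cause was not tested. Over all types (main 428 calls) there were 804 with DESeq2, 2654 with no filter on low counts, 248 and 193 with iMPP libraries numbered above 46 and below 47, 147 with ST_HSC and MPP1 to MPP4 alone, 268 without LMPP, HPC2 and HPC3, and 656 with all groups in one fit. Chosen after seeing the data, dropping the Y-positive iMPP libraries gave 185 and one limma voom fit of all groups with the library as a block 1106. In tMPP types (main 258) the same settings gave 641, 2215, 134, 171, 62 and 158, and 168 without the Y-positive libraries; sums of at least 10 cells gave 151, leaving out libraries with both origins 121 and limma on mean log values 879. Higher genes were 46.8% of the calls on mean log values over all types, 71.9% and 72.9% with no filter over all and tMPP types, and 47% in tMPP types without the Y-positive libraries. The fit with the predicted type as a covariate held sums of tMPP types only, with 451 calls, 47.2% of them higher. Leaving out 1 library gave 287 to 529 calls over all types and 168 (without L62) to 402 (without L78) in tMPP types, and 38 of 51 and 22 of 32 called named genes kept their call throughout. Against day 5 (main 4 named genes) DESeq2 called 8 and sums of at least 10 cells 14. Of the shares of cells (main 2 calls), 1 was called without thinning and 0 with at least 10 cells per library, where Flt3 and Hlf had adjusted p of 0.0984 and 0.0730 (permutation test).

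The log2 changes that reversed all belonged to genes not called in that comparison, except Npm1. Over all types Procr was -0.13 with at least 10 cells per sum, -0.14 with cells thinned and -0.39 without LMPP, HPC2 and HPC3, Npm1 -0.0265 on mean log values, and Elane and Mpo 0.22 and 0.22 above library 46 and 0.11 and 0.0171 in the fit with the library block. Mki67 was -0.0135 without the Y-positive libraries, and -0.0457 (without L59) to 0.1208 (without L78) with 1 library left out, below 0 also without L60, L4 or L14; with the type as covariate, in tMPP sums only, it was -0.43, beside -0.10 in tMPP types without it. In tMPP types Mki67 was 0.60 on mean log values and 0.0904 without LMPP, HPC2 and HPC3, Procr -0.12 in the latter, Elane and Mpo 0.27 and 0.28 above library 46, Fpr2 -0.0434 below library 47 and Hmox1 -0.0151 (without L78) to 1.38 (without iMPP L23) with 1 library left out. Against day 5, Nolc1 was -0.0183 with DESeq2, and Hmox1 2.33 and Top2a -0.0632 with at least 10 cells. Differences in shares of cells, in percentage points, were -0.38 at 50000 counts and -2.23 without thinning for Mki67, and 2.01 and -1.26 without thinning for Procr and Gata1. No paired analysis was possible because the labels carry no replicate numbers that tie day 7 to iMPP libraries, and the block by library for the 2 comparisons and for day 5 was not run, since only L49 holds both groups and the correlation could not be estimated. Depth limits the genes near the filter on low counts.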
